A study of Mus musculus with 64 samples.

Results

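The Hox genes of the mouse were followed through male germ cell development and in whole testis, in animals with and without MORC1, DNMT3L and MIWI2. The genes were chosen by symbol alone, as every row of the gene tables that carries the name of a gene of the HoxA, HoxB, HoxC or HoxD cluster. This gave 39 of 26385 genes, of which 11 lie in HoxA (chr6:52105366-52210874, mm9), 10 in HoxB (chr11:96055630-96229570), 9 in HoxC (chr15:102751534-102867274) and 9 in HoxD (chr2:74506367-74603200). RNA-Seq of 47 libraries, each from 1 mouse, was used: 20 of sorted germ cells and 27 of whole testis.

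Sorted germ cells of Morc1tg/tg males were compared with those of heterozygous Morc1tg/+ males at E16.5 (2 and 2 libraries), E18.5 (2 and 2), P2.5 (2 and 3) and P10.5 (3 and 4). The Morc1tg allele arose in FVB/N mice, where a tyrosinase transgene landed in Morc1 and exons were lost, so that every control library of the sorted series also carries 1 copy of the allele. Cells up to P2.5 were sorted by the Oct4-IRES-eGfp reporter, in a mixed background. Cells at P10.5 were sorted without it, as EPCAM high, MHCI negative cells of low side scatter. The paper names the reporter cross only for sorts up to P2.5, and the line itself was kept in FVB/N. So age, sort and genetic background cannot be told apart between P2.5 and P10.5. Whole testis of the same line was profiled at P10.5 (3 Morc1tg/tg libraries against 2 Morc1tg/+ and 1 Morc1+/+) and at P14.5 (3 Morc1tg/tg against 3 Morc1tg/+), with a preliminary pair of P10.5 libraries, 1 Morc1+/+ and 1 Morc1tg/+. Testes at P10.5 also came from Dnmt3l-/- mice (3 libraries, against 3 Dnmt3l+/- and 3 Dnmt3l+/+), which lack the cofactor of de novo DNA methylation, and from the Miwi2 line (2 Miwi2-/- and 2 Miwi2+/-), named for the PIWI protein encoded by Piwil4. Sorted cells gave ribosomal RNA-depleted total RNA and an Ovation kit, whereas testes gave polyadenylated RNA and the TruSeq kit, so tissue and library type cannot be told apart. In addition, a drop in a whole testis library can mean fewer cells of a type or less RNA per cell, and these cannot be told apart.

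Depth, as reads on genes, was 2413679 to 14918478 in the sorted libraries (median 7542700) and 22509570 to 42137954 in whole testis (median 28816000). Of these, the 39 Hox genes took 208 to 2260 reads (median 734) and 1704 to 5539 reads (median 3458). Levels are the authors' RPKM, reads scaled to the length of the exons and to the mapped reads, which can be compared between genes. A single read was worth between 0.0129 and 0.0644 RPKM for the Hox genes in P10.5 Morc1tg/+ germ cells. Morc1 itself fell in the mutants of each set, from 44.5 to 9.72 RPKM in E16.5 germ cells, from 9.57 to 4.90 in P10.5 germ cells and from 7.65 to 2.26 in P10.5 testis, and Dnmt3l fell from 0.678 to 0.0412. Piwil4 went against its label. It was at 6.65 and 7.01 RPKM in the libraries labelled Miwi2+/- and at 10.7 and 11.5 in those labelled Miwi2-/- (log2 change 0.69 ± 0.07 SE, adjusted p = 0.000746 by edgeR's quasi-likelihood test with Benjamini-Hochberg adjustment), so every Miwi2 direction here is that of the labels.

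Hox genes encode homeodomain transcription factors that give cells their position along the body axis and, in the posterior groups, along the limb and the urogenital tract. Genes at the 3' end of a cluster are used early and towards the head, and genes at the 5' end late and towards the tail. Outside their domains the clusters are held silent by Polycomb complexes, while Trithorax proteins of the MLL family keep active genes on, and HOX proteins bind DNA together with PBX and MEIS cofactors. In the adult and juvenile testis, Hox expression is best known from the somatic cells, which keep the positional code of the urogenital ridge, with Hoxa4 a known exception that is transcribed in male germ cells entering meiosis.

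The family is read through the homeobox, and the stretch that codes for the recognition helix shows how close its members are and why short reads must be unique to separate them. The 51 coding bases around that helix are given below for 6 of the members on which the results turn, with the 18 bases of its 6 core residues in capitals, read from the mm9 coding transcripts.
Hoxb2: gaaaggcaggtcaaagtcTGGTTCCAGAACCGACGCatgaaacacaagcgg
Hoxb6: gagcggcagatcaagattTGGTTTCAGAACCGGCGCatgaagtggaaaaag
Hoxb7: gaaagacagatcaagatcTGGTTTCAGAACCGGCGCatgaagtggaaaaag
Hoxb8: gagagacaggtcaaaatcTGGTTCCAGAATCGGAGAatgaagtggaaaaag
Hoxb9: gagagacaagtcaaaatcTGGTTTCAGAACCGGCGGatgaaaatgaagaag
Hoxa4: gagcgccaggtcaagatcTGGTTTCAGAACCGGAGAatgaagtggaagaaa

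All 39 members held the same 6 core residues, written in 30 different ways at the DNA level. Between the printed members, 35 to 47 of the 51 bases were identical: Hoxb6 and Hoxb7 shared 47, whereas Hoxb2 and Hoxa4 shared 35. Stretches of 50 transcript bases that recur exactly in another gene, Hox or not, made up 27.2% of Hoxb7 and 37.4% of Hoxb8. They made up 20.5% of Hoxd3 and 42.2% of Hoxd4. The Hox genes sharing them were Hoxb7 with Hoxb8 and Hoxd3 with Hoxd4. These pairs are annotated as overlapping on the same strand, so reads there fall in more than 1 gene and are not counted by HTSeq's default. The share was at most 1.02% in every member other than these, Hoxa2 and Hoxa3. Hoxa3 also overlaps Hoxa4, Hoxa5 and Hoxa6, and its values are therefore less certain, as are those of Hoxa11, Hoxd3 and Hoxd8, which have annotated antisense partners. No source used here states whether the libraries kept strand, and without it reads of such partners cannot be told apart.

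The genes were chosen to ask whether they are silent in germ cells. Fetal germ cells held Hox reads, with summed levels close to or above those of the whole testis libraries, whereas at P10.5 the levels were low. Summed over the 39 genes, the level in Morc1tg/+ germ cells was 35.6 and 42.4 RPKM in the E16.5 libraries and 75.0 and 76.3 in those of E18.5. It lay between 16.9 and 27.5 RPKM at P2.5 and was 8.18 ± 0.349 RPKM (SD, n = 4) at P10.5. The number of members at a mean of 1 RPKM or more went from 13 to 21 to 7 to 1. Whole testis of the P10.5 controls summed to 41.1 ± 2.23 RPKM (SD, n = 3), with 6 members at 1 RPKM or more. Even at P10.5, Hoxa6 and Hoxd4 were the 2 genes of the 39 without a read in the 4 sorted Morc1tg/+ libraries. In all, 7 members (Hoxa5, Hoxa6, Hoxa9, Hoxa11, Hoxc5, Hoxd4 and Hoxd12) did not reach a mean of 1 RPKM in any group.

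**Figure D1:**
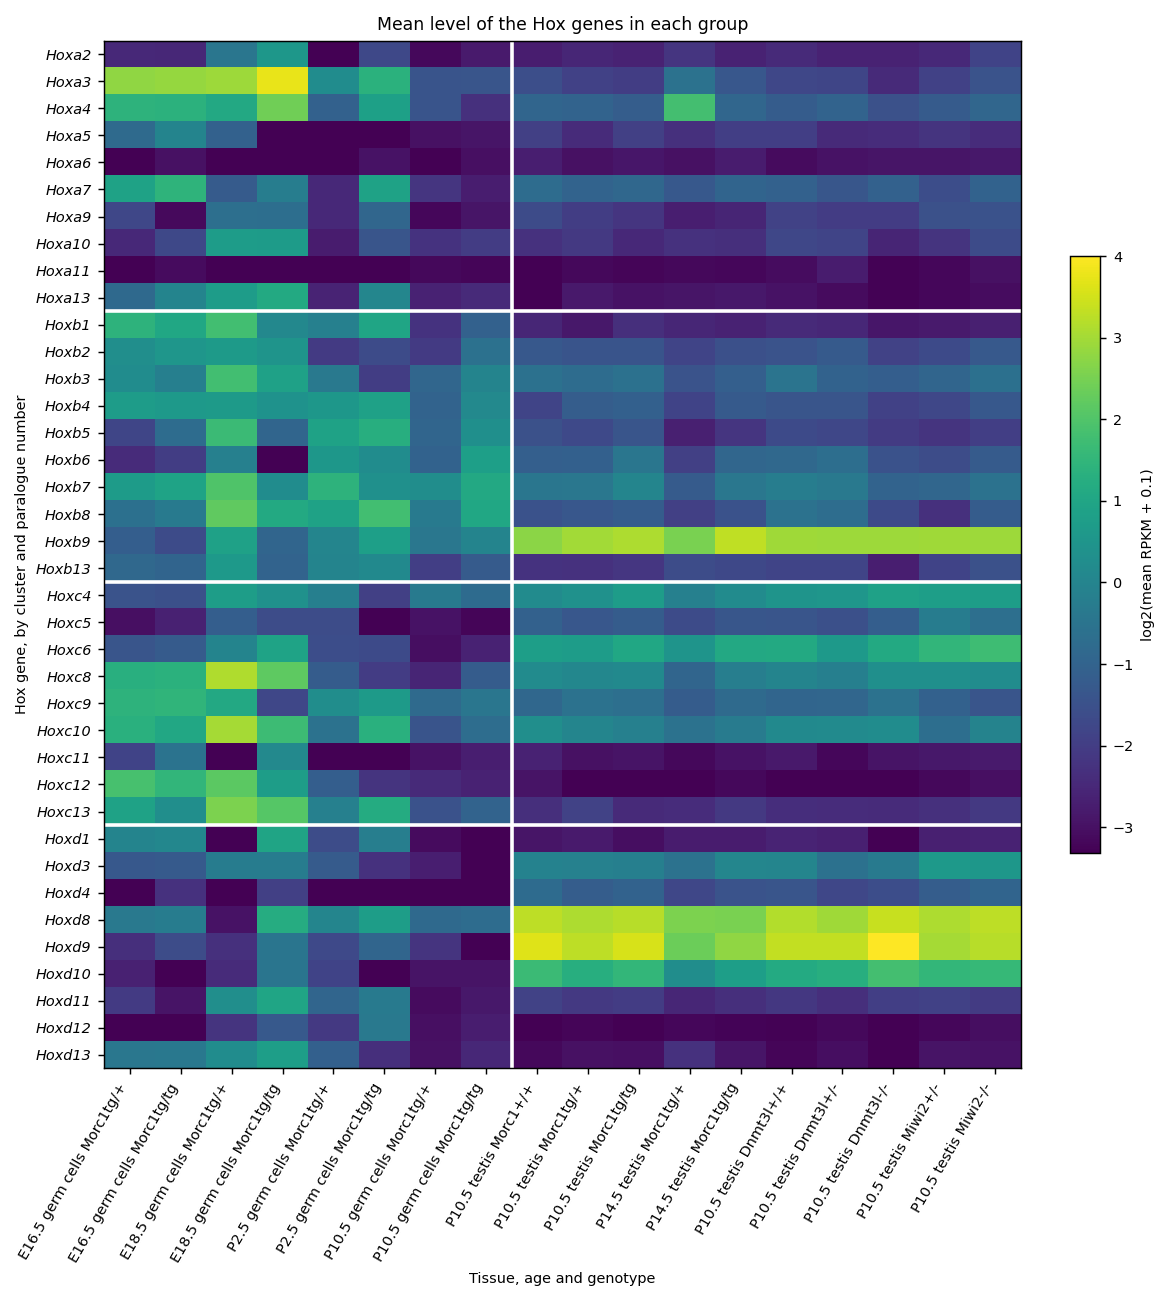
Mean level of the Hox genes reported (rows, by cluster and paralogue number) in each group of libraries (columns), as log2(mean RPKM + 0.1), with white lines between the clusters and between sorted germ cells (left) and whole testis (right). Fetal germ cells are bright over HoxA, HoxB and HoxC, P10.5 germ cells are dark but for HoxB, and whole testis is bright in Hoxd8, Hoxd9, Hoxd10 and Hoxb9.

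Which Hox genes the germ cells held changed with age. At E16.5, Hoxa3, an anterior gene needed for the pharyngeal organs, led with 7.09 and 6.67 RPKM in the 2 Morc1tg/+ libraries. It stood clear of the next genes, whose ranges overlapped: the posterior gene Hoxc12 (2.67 and 4.51), Hoxb1, Hoxa4, Hoxc9 and Hoxc10, at means of 3.59, 2.58, 2.56, 2.56 and 2.43. At E18.5 Hoxc8, which patterns the trunk and its motor neurons, reached 7.99 and 9.30 RPKM from 1.99 and 2.70 at E16.5. Hoxb8, a trunk gene, reached 5.06 and 4.07 from 0.294 and 0.810. In both, the E18.5 libraries lay above all E16.5 libraries.

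These were the 2 of 29 tested members that rose from E16.5 to E18.5 (6.90%, against 3.49% of all genes tested). Hoxc8 rose by a log2 change of 1.91 ± 0.34 (SE, edgeR's quasi-likelihood test, Benjamini-Hochberg adjusted p = 0.0347) and Hoxb8 by 3.08 ± 0.60 (adjusted p = 0.0428). None fell in the fit with all libraries. The median over the members tested was 1.31, against -0.07 over all genes, and 22 of the 29 lay above 0. With 2 libraries a group the calls were fragile. Without either E16.5 Morc1tg/+ library both calls were lost (highest adjusted p 0.269 and 0.223), whereas without E18.5 Morc1tg/+ replicate 1, with the lone library taken to vary like the other group, 13 members were called higher and 5 lower (Hoxa4, Hoxa7, Hoxd8, Hoxd1 and Hoxa3), beside 9106 of 17186 genes. Without replicate 2 of that group 12 were called higher and 2 lower, Hoxd8 and Hoxd1, beside 6392 of 17238 genes. Hoxd1, named after its values were seen, had 70 reads at E16.5 (0.808 and 0.982 RPKM) and none at E18.5, at least 7.98-fold less.

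From E18.5 to P2.5 the fetal pattern went down. Hoxc10, a gene of lumbar motor neurons and hindlimb, was at 9.46 and 6.59 RPKM at E18.5 and at 0.583, 0.772 and 0.390 at P2.5. Hoxc8 was at 0, 0.897 and 0.121 RPKM at P2.5, and Hoxc13, known from hair and nails, dropped from 5.08 and 6.53 to 0.633, 0.838 and 0.945. Hoxa3 dropped from 10.7 and 4.40 to 0.720, 2.29 and 0.271. In all of these the P2.5 libraries lay below both E18.5 libraries.

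In edgeR's quasi-likelihood test, 4 of 25 tested members fell over this interval (16.0%, against 13.4% of all genes tested) and none rose. Hoxc10 fell by 3.94 ± 0.68 on the log2 scale (adjusted p = 0.0022), Hoxc8 by 4.69 ± 0.94 (adjusted p = 0.00491), Hoxc13 by 3.04 ± 0.62 (adjusted p = 0.00551) and Hoxa3 by 2.88 ± 0.76 (adjusted p = 0.0192). The call of Hoxa3 stood in 5 of 8 alternative settings and was lost without P2.5 Morc1tg/+ replicate 1 or 3 or E18.5 Morc1tg/+ replicate 1 (adjusted p up to 0.0941). The member median was -1.53 against -0.04 over all genes. The filter on low counts can be met through the higher group alone. Hoxc10 passed it in that way (120 and 97 reads at E18.5, 5, 15 and 8 at P2.5). So did Hoxc8 (122 and 165, against 0, 21 and 3). The share and the median are therefore tilted towards falls. What remained at P2.5 was led by HoxB, with Hoxb7 at 2.58 RPKM, Hoxb5 at 1.78, Hoxb8 at 1.76, Hoxb6 at 1.38 and Hoxb4 at 1.37 (means of 3 libraries), followed by Hoxc9 at 1.10 and Hoxa3 at 1.09. Cell markers also moved over this interval. Of those tested, 3 of 7 peritubular and stromal genes and 1 of 2 Leydig genes fell (median log2 changes -2.04 and -4.57), and none rose. Of 7 Sertoli genes 1 rose and 1 fell (median 0.47), and of 13 germ cell genes 3 rose and 1 fell. The part of these shifts in the Hox levels was not tested.

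Between P2.5 and P10.5, with the change of sort and background named above, several HoxB genes went down. Hoxb5 was at 1.34, 2.13 and 1.85 RPKM at P2.5 and at 0.492, 0.548, 0.548 and 0.118 at P10.5. Hoxb7 went from 1.74, 3.43 and 2.57 to 0.957, 1.05, 0.885 and 1.54, and Hoxb4, a gene of the hindbrain and of blood stem cells, from 1.02, 1.18 and 1.90 to 0.203, 0.265, 0.713 and 0.416. No P10.5 library reached the lowest P2.5 library for any of the 3 genes. Hoxd11, a limb and kidney gene, went from 0.679, 0.346 and 0.240 RPKM to a single library with reads (0.0646).

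Of 15 tested members, 4 fell (26.7%, against 19.3% of all genes tested) and none rose. The falls were 4.17 ± 1.23 for Hoxd11 (adjusted p = 0.0147, edgeR's quasi-likelihood test), 1.81 ± 0.56 for Hoxb5 (adjusted p = 0.0189), 0.98 ± 0.33 for Hoxb7 (adjusted p = 0.028) and 1.52 ± 0.51 for Hoxb4 (adjusted p = 0.0283), all on the log2 scale. Hoxd11 passed in all 10 alternative settings. It met the filter on low counts through P2.5 alone (13, 15 and 11 reads, against 0, 5, 0 and 0 at P10.5). The share of falls is therefore tilted upwards. Hoxb5 lost its call without P2.5 Morc1tg/+ replicate 2 (adjusted p = 0.0604). Hoxb4 and Hoxb7 each passed in 6 of 10. Hoxb4 was lost without P10.5 Morc1tg/+ replicate 1, 2 or 4 or P2.5 Morc1tg/+ replicate 3 (adjusted p up to 0.107), and Hoxb7 without P10.5 Morc1tg/+ replicate 1, 2 or 3 or P2.5 Morc1tg/+ replicate 2 (up to 0.154). The count ran from 2 to 10 over the libraries left out. Among cell markers, 5 of 9 Sertoli genes (median log2 change 1.70) and 1 of 6 peritubular and stromal genes tested rose over this interval, and none of either fell. Their part was not tested. The P2.5 and P10.5 libraries used here are also the controls of the mutant comparisons below.

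**Figure D2:**
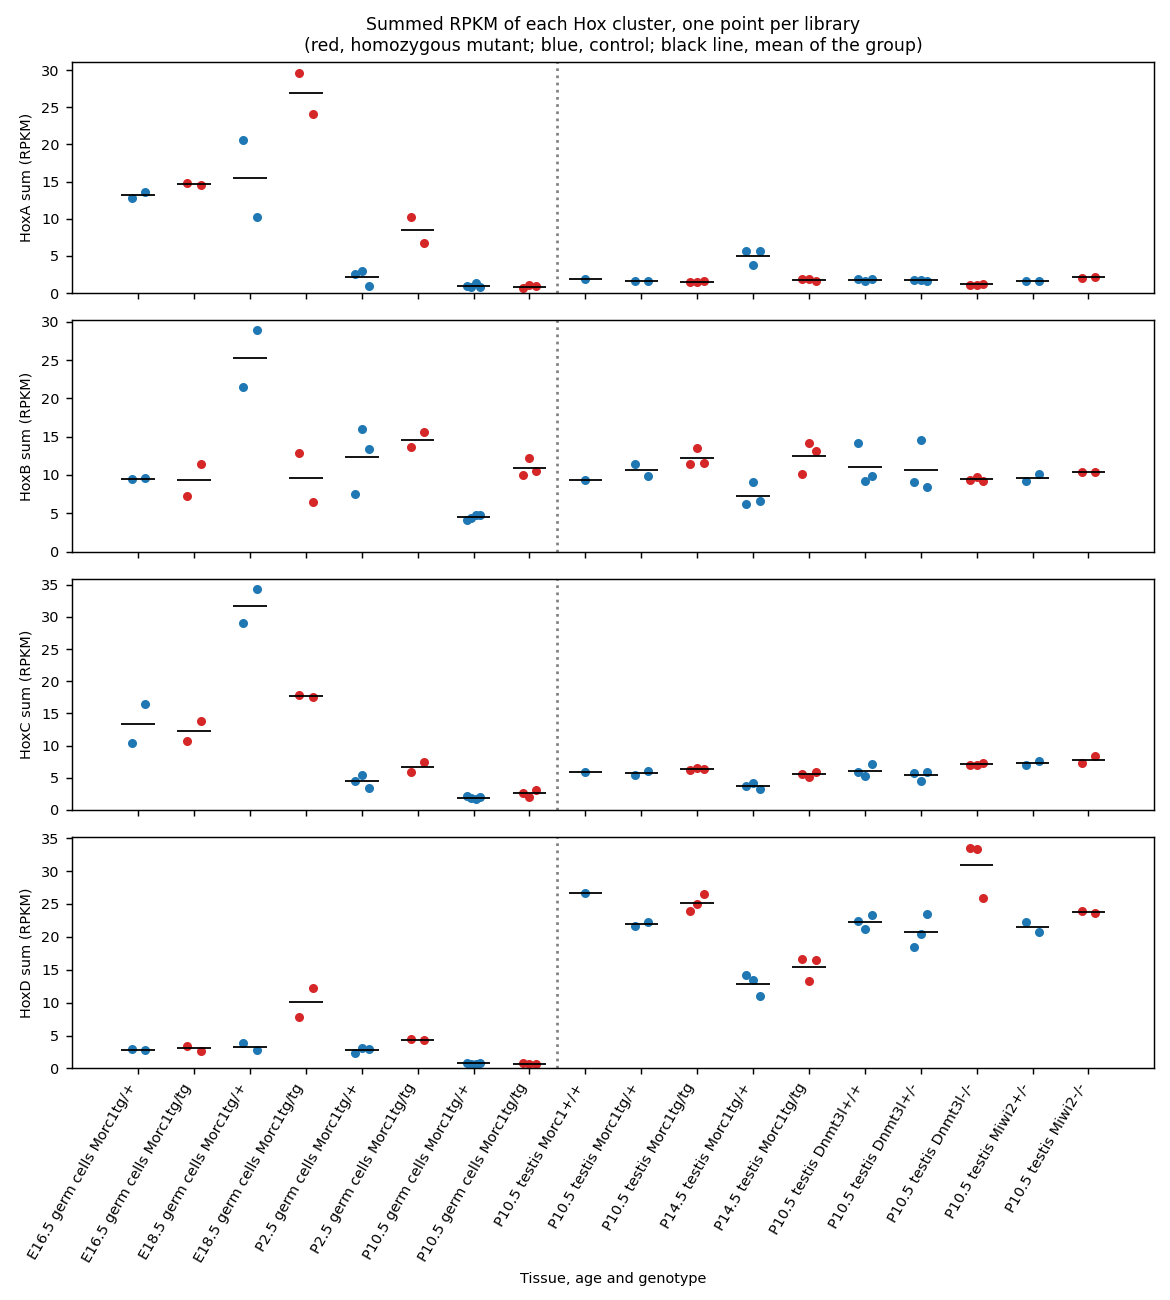
Summed RPKM of each Hox cluster in each library (vertical axes from 0; points, libraries; black lines, group means; red, homozygous mutants; blue, controls), with a dotted line between sorted germ cells and whole testis. HoxD dominates whole testis (mean 23.5 RPKM in P10.5 Morc1 controls) and HoxB sorted germ cells at P10.5, where the 3 Morc1tg/tg libraries lie between 10.0 and 12.2 RPKM and the 4 Morc1tg/+ libraries between 4.12 and 4.83.

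Whole testis and sorted germ cells of the P10.5 controls differed in which Hox genes they held. Hoxd9, a posterior gene of the lumbosacral axis and hindlimb, had the highest mean in the testis controls, with 9.24 and 10.1 RPKM in the Morc1tg/+ libraries and 12.5 in the Morc1+/+ library, and it was at 0.138, 0.101, 0.226 and 0 RPKM in the sorted Morc1tg/+ cells. Its neighbour Hoxd8 was at 8.71, 8.39 and 9.57 RPKM in testis against 0.594, 0.480, 0.304 and 0.504 in sorted cells, and Hoxb9, a thoracic gene, at 8.76, 6.87 and 6.55 against 0.491, 0.962, 0.839 and 0.283. The groups were far apart for each of these genes, while within testis the range of Hoxd9 overlapped that of Hoxd8.

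Hoxd10, which specifies lumbar motor neurons, was at 2.18, 2.44 and 3.07 RPKM in testis and had reads in 1 sorted library (0.125). Hoxc6, of the forelimb and mammary region, stood at 1.62, 1.46 and 1.64 RPKM in testis and had reads in 1 sorted library (0.0792). Together, Hoxd8, Hoxd9, Hoxd10 and Hoxb9 made up 71.6% of the Hox sum of the testis controls and 15.4% of that of the sorted cells. The paralogue groups 9 and 8 alone held 45.5% and 24.7% of the testis sum, so that testis Hox expression was concentrated in the middle and posterior part of the clusters.

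Of 19 tested members, 8 were lower in sorted cells than in testis (42.1%, against 42.9% of all genes tested) and 6 were higher (31.6%, against 40.4%), shares that were not above those of genes at large. The lower ones were Hoxd8 (log2 change -3.53 ± 0.18, adjusted p = 8.88e-11), Hoxd9 (-5.77 ± 0.31, adjusted p = 1.65e-10), Hoxb9 (-2.80 ± 0.26, adjusted p = 8.55e-08), Hoxd10 (-5.71 ± 0.56, adjusted p = 1.5e-07) and Hoxc6 (-5.57 ± 0.64, adjusted p = 1.04e-06), by edgeR's quasi-likelihood test, with Hoxc8, Hoxd3 and Hoxc10. Some of these met the filter on low counts through testis alone, so the share of lower members depends in part on that filter. They include Hoxd9 (5, 4, 8 and 0 sorted reads), Hoxd10 (0, 0, 0 and 5) and Hoxc6 (0, 0, 0 and 2). Hoxd4 was not tested in the fit with all libraries, where the filter on low counts removed it. It was called lower by DESeq2 (log2 change -5.87, adjusted p = 7.93e-06) and by edgeR's test without the filter (-7.34, adjusted p = 2.62e-05). It had 96 reads in the 3 testis libraries and none in the sorted ones, and was at least 22.4-fold lower in sorted cells, taking 3 counts in the group as the limit of detection.

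The genes on the other side were led by HoxB. Hoxb7, a trunk gene, was at 0.605, 0.704 and 0.635 RPKM in testis and at 0.885 to 1.54 in sorted cells, which did not overlap (log2 change 1.47 ± 0.25, adjusted p = 5.44e-05, edgeR's quasi-likelihood test). Hoxb8 (2.01 ± 0.40, adjusted p = 0.000253), Hoxb5 (1.63 ± 0.44, adjusted p = 0.00303), Hoxb4 (1.14 ± 0.43, adjusted p = 0.0221), Hoxc13 (1.49 ± 0.49, adjusted p = 0.0107) and Hoxa3 (1.20 ± 0.51, adjusted p = 0.0408) were also higher, with RPKM ranges that overlapped between the tissues. The calls of Hoxa3, Hoxb4 and Hoxc13 did not hold throughout. Hoxa3 passed in 3 of 11 alternative settings (adjusted p up to 0.238), and was lost in DESeq2, without the filter on low counts, with Morc1tg/+ controls alone and without sorted replicate 3 or 4 or any 1 of the 3 testis libraries. Hoxb4 passed in 7 of 11 (up to 0.136), lost without sorted replicate 3, testis Morc1+/+ replicate 1 or Morc1tg/+ replicate 2, or with Morc1tg/+ controls alone. Hoxc13 passed in 6 of the 8 that gave it a value (up to 0.0834), lost without the Morc1+/+ library and with Morc1tg/+ controls alone. Hoxc10, among the lower genes, was lost in the same settings (0.0564). These changes are relative to the median gene, which itself lay lower by 0.73 (log2) in the RPKM of the sorted cells, and all 6 also had a higher mean RPKM there (for Hoxb4, 0.399 against 0.295). The summed Hox level was 5.03-fold (propagated SD 0.347) higher in testis in the deposited RPKM, and 2.92-fold or 3.09-fold higher when each library was rescaled to its own RPKM total or by TMM.

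Most markers of other cells were low in the sorted libraries of the P10.5 controls. The 9 Sertoli genes measured summed to 95.6 RPKM (75.9 to 126) against 3495 in testis, the 9 peritubular and stromal genes to 9.66 (8.97 to 10.2) against 1095, and the 6 Leydig genes to 2.11 against 235. All 9 Sertoli and all 9 stromal genes were lower in the sorted cells, and so were all 5 Leydig genes tested. Tcf21, Cyp11a1 and Insl3 had no read there. Of 6 macrophage genes 5 were lower and Cd68 was higher (log2 change 0.64, adjusted p = 0.00426). Of the 12 epididymis and Wolffian duct genes 8 had no read there, while Pax8 was higher in sorted cells (2.61, adjusted p = 8.89e-08) and Cst8 lower (-4.52, adjusted p = 1.38e-07), in edgeR's test. The germ cell list summed to 722 RPKM in sorted cells and 481 in testis. Amh was at 3.23 and Clu at 55.6 RPKM in the sorted cells, so Sertoli RNA was reduced but present. The part of these markers in the Hox levels was not tested.

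In sorted germ cells at P10.5, loss of MORC1 went with higher levels of HoxB genes. Hoxb6, a trunk gene, was at 0.552, 0.309, 0.189 and 0.541 RPKM in Morc1tg/+ (18, 11, 6 and 16 reads) and at 1.29, 2.13 and 1.59 in Morc1tg/tg (40, 70 and 48 reads). Hoxb8 was at 0.659, 0.749, 0.326 and 1.10 RPKM against 1.43, 2.46 and 2.01, and Hoxb7 at 0.957, 1.05, 0.885 and 1.54 against 2.43, 1.93 and 1.83. For each of them the lowest mutant library was above the highest control.

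Of the more anterior HoxB genes, Hoxb5, Hoxb4 and Hoxb2 showed the same order. Hoxb5, a gene of the cervical axis and of enteric neurons, was at 0.492, 0.548, 0.548 and 0.118 RPKM against 0.855, 1.36 and 1.25. Hoxb4 was at 0.203, 0.265, 0.713 and 0.416 RPKM against 1.22, 0.934 and 0.814, and Hoxb2, needed in the hindbrain, at 0.164, 0.150, 0.0373 and 0.201 against 0.651, 0.559 and 0.491. Again no libraries overlapped. Hoxb1, the most anterior gene of the cluster, was at 0.0288, 0.132, 0.118 and 0.159 RPKM against 0.334, 0.715 and 0.0934, and Hoxb13, the most posterior, at 0.109, 0.0998, 0.0559 and 0.361 against 0.229, 0.270 and 0.500. Both overlapped and had too few reads to be tested. Hoxb3, which lies inside this run of genes, and Hoxb9, which ends it, likewise did not separate the groups. Hoxb3 was at 0.464, 0.142, 1.02 and 0.102 RPKM against 0.912, 0.8289 and 0.902, and Hoxb9 at 0.491, 0.962, 0.839 and 0.283 against 0.688, 0.973 and 1.01.

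All 6 members that passed the test with all libraries were of HoxB. Hoxc8, named after its values were seen, also did not overlap, at 0.0262, 0.0479, 0 and 0.202 RPKM in Morc1tg/+ and 0.385, 0.311 and 0.311 in Morc1tg/tg. It did not pass (adjusted p = 0.0836, edgeR's quasi-likelihood test), but did without Morc1tg/+ replicate 4 (0.0175). The HoxB genes called were 6 of the 15 members tested, against 6.43% of all genes tested, none was lower, and 24 members had too few reads to be tested. The filter on low counts can be met through the higher group alone. Hoxb2 (9, 9, 2 and 10 reads in Morc1tg/+, 34, 31 and 25 in Morc1tg/tg) and Hoxc8 (1, 2, 0 and 7 against 14, 12 and 11) passed it in that way. The share of 15 is therefore tilted towards rises. Without the filter, 6 of 38 members were called higher, and 1893 of 19844 genes in either direction, which is not a like share. The log2 changes were 1.99 ± 0.42 for Hoxb6 (adjusted p = 0.00236, edgeR's quasi-likelihood test), 1.39 ± 0.33 for Hoxb8 (adjusted p = 0.00586), 0.82 ± 0.23 for Hoxb7 (adjusted p = 0.0189), 1.95 ± 0.55 for Hoxb2 (adjusted p = 0.0201), 1.23 ± 0.37 for Hoxb4 (adjusted p = 0.0275) and 1.34 ± 0.41 for Hoxb5 (adjusted p = 0.0319). The summed HoxB level was 4.52 ± 0.322 RPKM (SD, n = 4) in controls and 10.9 ± 1.11 RPKM (SD, n = 3) in mutants, or 55.3% and 72.4% of all Hox RPKM, while the HoxA sum was 0.974 and 0.877, the HoxC sum 1.93 and 2.58, and the HoxD sum 0.754 and 0.702.

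Hoxb6 and Hoxb8 passed in all 11 alternative settings, with highest adjusted p of 0.0295 and 0.047. The other calls were lost when single libraries were left out, and that of Hoxb5 also with the replicate number as a block (adjusted p = 0.0839). With 1 library left out, 3 to 5 calls stood. Without Morc1tg/tg replicate 1, Hoxb4 (adjusted p = 0.129), Hoxb7 (0.106) and Hoxb2 (0.0886) did not pass in edgeR's test, and without Morc1tg/tg replicate 2 it was Hoxb4 (0.0529), Hoxb5 (0.124) and Hoxb2 (0.0688). Leaving out Morc1tg/tg replicate 3 ended the calls of Hoxb5 (0.106) and Hoxb2 (0.0521), Morc1tg/+ replicate 1 those of Hoxb4 (0.0929), Hoxb5 (0.059) and Hoxb7 (0.0679), replicate 2 that of Hoxb4 (0.0641), replicate 3 those of Hoxb7 (0.0664) and Hoxb2 (0.0593), and replicate 4 those of Hoxb4 (0.0512) and Hoxb5 (0.0801).

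Cell markers moved beside the HoxB genes in different directions. The Sertoli sum was 75.9 to 126 RPKM in Morc1tg/+ and 49.5 to 101 in Morc1tg/tg, and 4 of 9 Sertoli genes fell, among them Cldn11 (log2 change -0.90 ± 0.17, adjusted p = 0.000898). The peritubular and stromal sum did not overlap, at 8.97 to 10.2 against 12.4 to 13.4 RPKM, and 2 of the 7 genes tested rose, Pdgfra from 1.18 to 2.39 RPKM and Col1a1 from 6.93 to 9.26, while Tcf21 had no read in either group and Dcn, Acta2 and Lum were at 0.577 RPKM or less. None of the 7 was called lower, but their median log2 change was -0.58, so most of them lay below 0 while the sum rose. The endothelial sum did not overlap either (2.66 to 3.53 against 4.04 to 4.73). Germ cell genes moved both ways, 3 up and 5 down of 13, with Zbtb16 of undifferentiated spermatogonia higher (0.41 ± 0.07, adjusted p = 0.000196) and Stra8 and Kit of differentiating cells lower (-1.08 ± 0.10 and -0.55 ± 0.09). The part of these shifts in the HoxB levels was not tested.

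**Figure D3:**
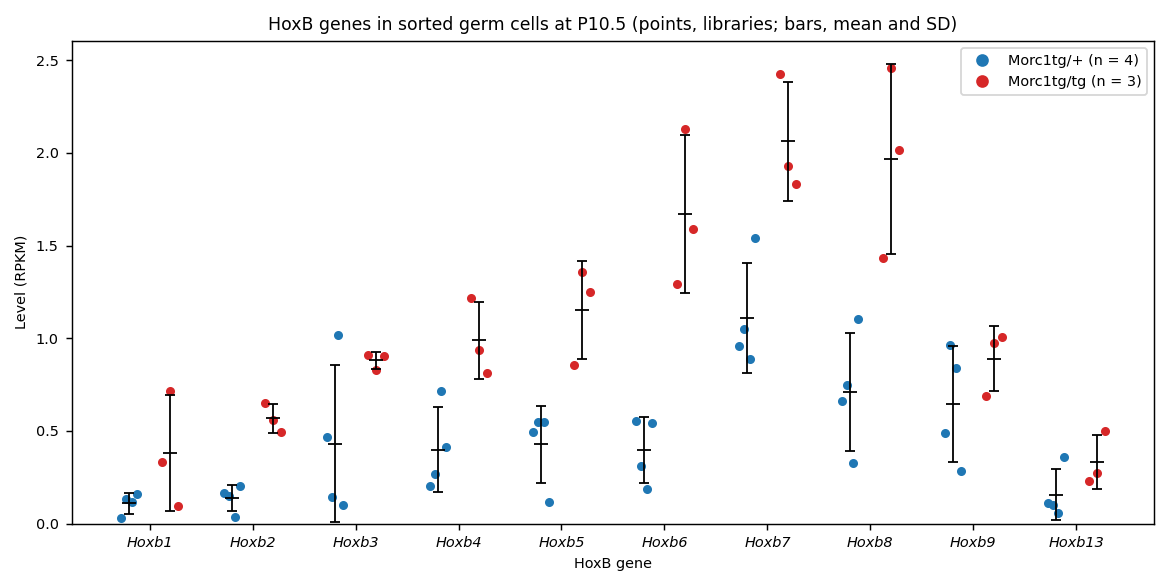
Level (RPKM) of the 10 HoxB genes in each library of sorted germ cells at P10.5 (blue, 4 Morc1tg/+; red, 3 Morc1tg/tg; bars, mean and SD). From Hoxb4 to Hoxb8, and for Hoxb2, the red points lie above all blue points, while Hoxb1, Hoxb3, Hoxb9 and Hoxb13 overlap.

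Start regions are shown for 2 of the 6 HoxB genes that passed, with Hoxd9, highest by mean in the P10.5 Morc1 testis controls, for contrast. RefSeq's promoter table (GRCm38.p6) gave 24 promoters for 22 members, each of 300 bases, 250 before the start and 50 after it, in the direction of transcription. CG dinucleotides, the sites of DNA methylation, are in capitals. The Hoxb4 window is chr11:96318017-96318316, that of Hoxb8 chr11:96281655-96281954 and that of Hoxd9 chr2:74697513-74697812, all on the plus strand.
Hoxb4: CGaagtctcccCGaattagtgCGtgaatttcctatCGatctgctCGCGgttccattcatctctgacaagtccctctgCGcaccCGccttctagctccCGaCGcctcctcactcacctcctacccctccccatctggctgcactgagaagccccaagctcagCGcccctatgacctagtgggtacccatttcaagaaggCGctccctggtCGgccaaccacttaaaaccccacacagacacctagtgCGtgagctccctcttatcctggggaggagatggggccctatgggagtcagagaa
Hoxb8: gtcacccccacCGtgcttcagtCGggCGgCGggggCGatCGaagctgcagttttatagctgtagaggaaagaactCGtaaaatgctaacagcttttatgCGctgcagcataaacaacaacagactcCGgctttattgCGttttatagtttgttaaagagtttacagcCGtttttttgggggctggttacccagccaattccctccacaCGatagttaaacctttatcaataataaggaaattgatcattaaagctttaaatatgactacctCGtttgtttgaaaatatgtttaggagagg
Hoxd9: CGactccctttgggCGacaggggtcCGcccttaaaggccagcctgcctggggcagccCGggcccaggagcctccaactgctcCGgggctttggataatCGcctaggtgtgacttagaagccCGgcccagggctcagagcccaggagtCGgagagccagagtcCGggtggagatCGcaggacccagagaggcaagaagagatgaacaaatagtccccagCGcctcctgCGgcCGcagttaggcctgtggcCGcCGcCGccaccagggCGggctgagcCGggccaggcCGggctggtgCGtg

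The windows held 14, 13 and 20 CG dinucleotides, with 58.0%, 42.3% and 68.3% of bases G or C. Over the 24 promoters of Hox genes the number ran from 4 to 45, against a median of 7 over all 32851 promoters in the table, of which 34.6% held as many as the median Hox promoter or more. The letters TATAAA, searched on both strands, were found in 4 Hox promoters, that of Hoxb8 among them (16.7%, against 13.6% of all promoters). The match describes the letters and no site was tested.

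Earlier germ cells of the same mutants gave no Hox call in edgeR's test with all libraries. At E16.5, none of 27 tested members passed edgeR's quasi-likelihood test (background 0.421% of all genes tested), none had an unadjusted p under 0.05, and DESeq2, which gave 1 member an adjusted p, called none. Hoxa3 was at 7.09 and 6.67 RPKM in Morc1tg/+ and 6.95 and 7.17 in Morc1tg/tg, which overlapped, and the member median was -0.00 (log2). At P2.5, none of 22 passed (background 0.0486%), none had an unadjusted p under 0.05 and DESeq2 called none, with a median of 0.75 against -0.02 over all genes and 18 of 22 above 0. The Hox sum at P2.5 was 16.9, 27.5 and 20.7 RPKM in controls and 34.2 in each mutant library. The HoxA sum (1.01 to 2.97 against 6.77 and 10.2), the HoxC sum (3.35 to 5.47 against 5.89 and 7.501) and the HoxD sum (2.28 to 3.09 against 4.38 and 4.41) did not overlap either, whereas the HoxB sum did (7.55 to 15.97 against 13.6 and 15.5). Hoxb7, higher in mutants at P10.5, was at 1.74, 3.43 and 2.57 RPKM in P2.5 controls and at 1.17 and 1.19 in mutants, and Hoxb8 at 1.01, 3.04 and 1.23 against 2.95 and 3.70.

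At E18.5, none of 29 members passed edgeR's test (background 0.0416%), 3 had an unadjusted p under 0.05 (Hoxa3, Hoxd1 and Hoxd8) and DESeq2 called 1, Hoxd8 (adjusted p = 0.042), which was at 0.0571 and 0 RPKM in controls and at 0.749 and 3.67 in mutants. Hoxd1 had no read in the controls and 2.47 and 1.23 RPKM in the mutants, 35 reads in all and at least 16.51-fold more than the 3-count floor of the controls. Hoxa3 was at 10.7 and 4.40 against 16.0 and 10.97. Without Morc1tg/+ replicate 1, 1 member was called, Hoxa4 (adjusted p = 0.0437), which was at 4.06 and 0 RPKM in controls and 7.02 and 3.50 in mutants. Other genes at this age were lower in the mutants, without a call. The HoxB sum was 21.5 and 29.0 RPKM in Morc1tg/+ and 12.9 and 6.45 in Morc1tg/tg, and the HoxC sum 29.1 and 34.3 against 17.9 and 17.6, with no overlap in either. Hoxb6 had 24 reads in the controls (0.307 and 1.32 RPKM) and none in the mutants, at least 5.68-fold less. The HoxB order at E18.5 was thus the opposite of that at P10.5, where the mutants were higher. These genes were named after their values were seen. In these small libraries a Hox gene could go from 0 to several RPKM between libraries of 1 genotype, and differences below that spread were not detectable.

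In whole testis at P10.5, 2 of 24 tested members were higher in Morc1tg/tg (8.33%, against 6.08% of all genes tested) and none was lower. Both were HoxB genes. Hoxb6 was at 0.405 and 0.339 RPKM in Morc1tg/+ and 0.362 in Morc1+/+, and at 0.681, 0.652 and 0.576 in Morc1tg/tg (log2 change 0.78 ± 0.20, adjusted p = 0.0233, edgeR's quasi-likelihood test). Hoxb7 was at 0.605, 0.704 and 0.635 RPKM against 0.962, 0.959 and 0.800 (0.49 ± 0.14, adjusted p = 0.0344). No libraries overlapped, but Hoxb6 passed in 4 of 12 alternative settings and Hoxb7 in 3 of 12. Both calls were lost when Morc1+/+ replicate 1, Morc1tg/+ replicate 3 or any 1 of the 3 mutant libraries was left out, in DESeq2 (adjusted p = 0.0914 and 0.0718) and with the replicate block (0.0619 and 0.0926).

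The abundant testis genes did not pass edgeR's test with all libraries at this age. Without Morc1tg/+ replicate 2, Hoxb9 passed it (log2 change 0.38, adjusted p = 0.0381). Hoxd9 was at 10.7, 12.2 and 12.4 RPKM in P10.5 Morc1tg/tg testis, Hoxd8 at 9.44, 8.51 and 9.80 and Hoxb9 at 7.67, 9.90 and 8.17, and each overlapped its controls. The Hox sum was 42.8 to 46.6 RPKM against 39.7 to 43.7. Meanwhile 10 of the 13 germ cell genes fell (sum 305 against 481 RPKM) and 4 of the 9 Sertoli genes rose (4073 against 3495).

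The same tissue contrast in Morc1tg/tg at P10.5, whose libraries also enter the genotype tests, placed 11 of 25 tested members lower in sorted cells (44.0%, against 43.7% of all genes tested) and 11 higher (44.0%, against 39.0%). Hoxd9 had no read in any of the 3 sorted mutant libraries and 2669 in testis, at least 410-fold less. Hoxd3 and Hoxd4 likewise had none, and were at least 45.3-fold and 16.1-fold lower. Hoxd9, Hoxd3 and Hoxd4 could meet the filter on low counts only through testis, so the share of lower members depends in part on that filter. Higher in sorted cells were Hoxb8 (log2 change 3.06 ± 0.28, adjusted p = 4.56e-07, edgeR's quasi-likelihood test), Hoxb7 (1.74 ± 0.18, adjusted p = 1.94e-06), Hoxb5 (2.61 ± 0.30, adjusted p = 4.88e-06), Hoxb4 (1.94 ± 0.26, adjusted p = 1.94e-05) and Hoxb6 (1.94 ± 0.27, adjusted p = 2.45e-05).

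Whether the effect of MORC1 loss differed between sorted cells and testis was tested as an interaction. Hoxb2 passed in the direction of a larger rise in sorted cells (1 of 23 members, 4.35%, against 3.15% of all genes tested; log2 difference 1.99 ± 0.54, adjusted p = 0.0329), as did Hoxd9 in the other direction (1 of 23, against 3.66%; adjusted p = 0.0342). Hoxd9 rests on 17 reads in the sorted controls and none in the sorted mutants, so its fitted difference of -6.24 is not a measure of size. Both calls came and went with single libraries, the count running from 0 to 3. Hoxb6, Hoxb7 and Hoxb8 did not pass, so their rise was not shown to differ between the tissues.

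At P14.5, when spermatocytes have appeared in controls, more Hox genes differed in testis. The largest difference was in Hoxa4. It was at 3.82, 2.36 and 4.19 RPKM in Morc1tg/+ and at 0.442, 0.441 and 0.429 in Morc1tg/tg, close to the 0.307 to 0.506 RPKM of the P10.5 controls. No other Hox gene changed so much in this comparison (log2 change -2.97 ± 0.27, adjusted p = 0.000151, edgeR's quasi-likelihood test), and the call stood in all 10 alternative settings. Hoxa3, its neighbour and overlapping gene, was at 0.612, 0.432 and 0.699 RPKM against 0.304, 0.329 and 0.258 (-0.95 ± 0.25, adjusted p = 0.0172).

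Genes of the other clusters were higher. Hoxb9 was at 4.40, 7.15 and 5.38 RPKM in P14.5 controls and at 7.43, 11.4 and 10.6 in mutants, and Hoxc6 at 1.501, 1.27 and 1.05 against 2.12, 1.93 and 2.04. Hoxb7 was at 0.296, 0.407 and 0.296 RPKM against 0.551, 0.778 and 0.615, and Hoxb6 at 0.193, 0.211 and 0.0748 against 0.393, 0.376 and 0.523. None of these overlapped. Hoxd8, in contrast, was at 6.29, 6.03 and 5.02 against 5.98, 5.01 and 6.04 RPKM, with full overlap.

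Of 24 tested members, 8 rose (33.3%, against 14.8% of all genes tested) and 2 fell (8.33%, against 20.1%). The filter on low counts can be met through the higher group alone. Among the rises, Hoxb6 passed it in that way (11, 13 and 4 reads in controls, 23, 21 and 27 in mutants). The share that rose therefore depends in part on that filter. The rises, by edgeR's quasi-likelihood test, were in Hoxb7 (log2 change 0.96 ± 0.22, adjusted p = 0.0101), Hoxb6 (1.40 ± 0.35, adjusted p = 0.0144), Hoxc6 (0.68 ± 0.17, adjusted p = 0.0149), Hoxb9 (0.81 ± 0.20, adjusted p = 0.0151), Hoxb4 (adjusted p = 0.0228), Hoxc8 (adjusted p = 0.0253), Hoxd9 (adjusted p = 0.0371) and Hoxd3 (adjusted p = 0.0496). Hoxb7, like Hoxa4, passed in all 10 settings. Without Morc1tg/tg replicate 3, Hoxb6 (0.0544), Hoxb9 (0.0509) and Hoxa3 (0.0576) did not pass. Without Morc1tg/+ replicate 3 the same held for Hoxc6 (0.0573), Hoxb9 (0.0504) and Hoxa3 (0.0655), without Morc1tg/+ replicate 1 for Hoxa3 (0.056) and without Morc1tg/tg replicate 2 for Hoxb9 (0.0539). Hoxc8 passed in 7 of 10 settings (adjusted p up to 0.0852) and was lost without Morc1tg/tg replicate 2 or 3 or Morc1tg/+ replicate 1. Hoxb4, Hoxd9 and Hoxd3 passed in 5 of 10 each, with adjusted p up to 0.0836, 0.127 and 0.153. Hoxb4 was lost in DESeq2 and without Morc1tg/tg replicate 1 or 2 or Morc1tg/+ replicate 1 or 3. Hoxd9 was lost with the replicate block and without Morc1tg/tg replicate 1 or 3 or Morc1tg/+ replicate 1 or 3, and Hoxd3 without any 1 of the 3 mutant libraries or Morc1tg/+ replicate 2 or 3. The count ran from 4 to 9.

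The makeup of the testes differed in the same libraries. The germ cell list summed to 1350 RPKM in P14.5 controls and 540 in mutants, with 10 of 13 genes lower (Sycp3, of the synaptonemal complex, by 2.13 on the log2 scale), and the Sertoli list to 3405 and 4662 RPKM, with 8 of 9 genes higher. The peritubular and stromal sums were 699 and 718. The part of this shift in the Hox levels was not tested.

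**Figure D4:**
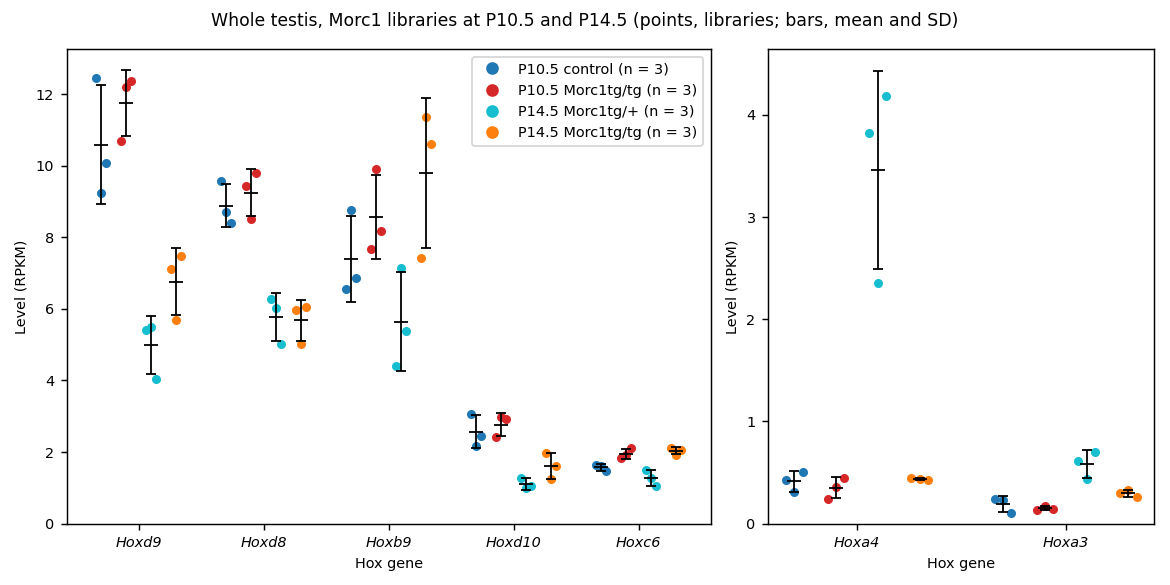
Level (RPKM) of selected Hox genes in whole testis of the Morc1 line, in each library at P10.5 and P14.5 (points; bars, mean and SD; 3 libraries per group). Hoxa4 is near 3.46 RPKM in P14.5 Morc1tg/+ testis and at most 0.506 RPKM in every library of the other groups, while Hoxd9, Hoxd8 and Hoxd10 are lower at P14.5 than at P10.5.

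Hoxa4 also led the change with age. In control testis it rose from 0.307, 0.506 and 0.425 RPKM at P10.5 to 3.82, 2.36 and 4.19 at P14.5 (log2 change 3.06 ± 0.28, adjusted p = 1.29e-05, edgeR's quasi-likelihood test), and in Morc1tg/tg it was at 0.242, 0.361 and 0.449 RPKM and then at 0.442, 0.441 and 0.429. With all libraries, the interaction of genotype and age was called for this member and no other (1 of 28 members, 3.57%, against 6.73% of all genes tested; log2 difference -2.81 ± 0.43, adjusted p = 0.00117), and it was called in all 15 alternative settings. Without P14.5 Morc1tg/+ replicate 1, Hoxd3 was called as well (log2 difference 1.07, adjusted p = 0.0141, edgeR's test). Hoxa3 (1.58 ± 0.31, adjusted p = 0.00166) and Hoxb13, known from the prostate (1.07 ± 0.30, adjusted p = 0.0121), were also among the members that rose with age in controls, 4 of 26 members (15.4%, against 29.6%). DESeq2 did not call Hoxb13 (adjusted p = 0.137).

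The genes abundant in P10.5 testis went the other way. Hoxd9 went from 9.24, 10.1 and 12.5 RPKM to 5.42, 5.48 and 4.05 in controls, Hoxd8 from 8.71, 8.39 and 9.57 to 6.29, 6.03 and 5.02, and Hoxd10 from 2.18, 2.44 and 3.07 to 1.29, 0.996 and 1.04. None overlapped between the ages. The falls were 1.09 ± 0.14 (adjusted p = 8.73e-05), 0.63 ± 0.09 (adjusted p = 0.000279) and 1.22 ± 0.17 (adjusted p = 0.000153) on the log2 scale in edgeR's test. Altogether 14 of 26 members fell (53.8%, against 29.2% of all genes tested), among them Hoxb5, Hoxb6, Hoxb7, Hoxb8 and Hoxc8, and the member median was -0.68. The filter on low counts can be met through the higher group alone. Hoxb5 passed it in that way (23, 18 and 18 reads at P10.5, 4, 6 and 4 at P14.5). The share and the median are therefore tilted towards falls. Hoxb8 passed in 3 of 9 alternative settings (adjusted p up to 0.175), and was lost in DESeq2 and without P14.5 Morc1tg/+ replicate 1 or 3 or any 1 of the 3 P10.5 libraries. Hoxb6 was lost in DESeq2 (0.0548). Of the marker lists, 10 of 13 germ cell genes rose and 8 of 9 stromal and 6 of 9 Sertoli genes fell over the same interval, and their part was not tested.

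In Morc1tg/tg testis, 6 of 25 members fell with age (24.0%, against 21.1%) and 2 rose (8.0%, against 19.8%). Hoxd9 went from 10.7, 12.2 and 12.4 RPKM to 7.11, 5.69 and 7.47 (log2 change -0.81 ± 0.11, adjusted p = 0.000354), Hoxd8 from 9.44, 8.51 and 9.80 to 5.98, 5.01 and 6.04 (-0.71 ± 0.10, adjusted p = 0.00034) and Hoxd10 from 2.41, 2.98 and 2.91 to 1.99, 1.26 and 1.61 (-0.78 ± 0.17, adjusted p = 0.00422), by edgeR's test. So the 3 HoxD genes were lower at P14.5 in both genotypes. Hoxa3 was among the rises (0.97 ± 0.24, adjusted p = 0.00953), though not in DESeq2 (0.0645).

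**Figure D5:**
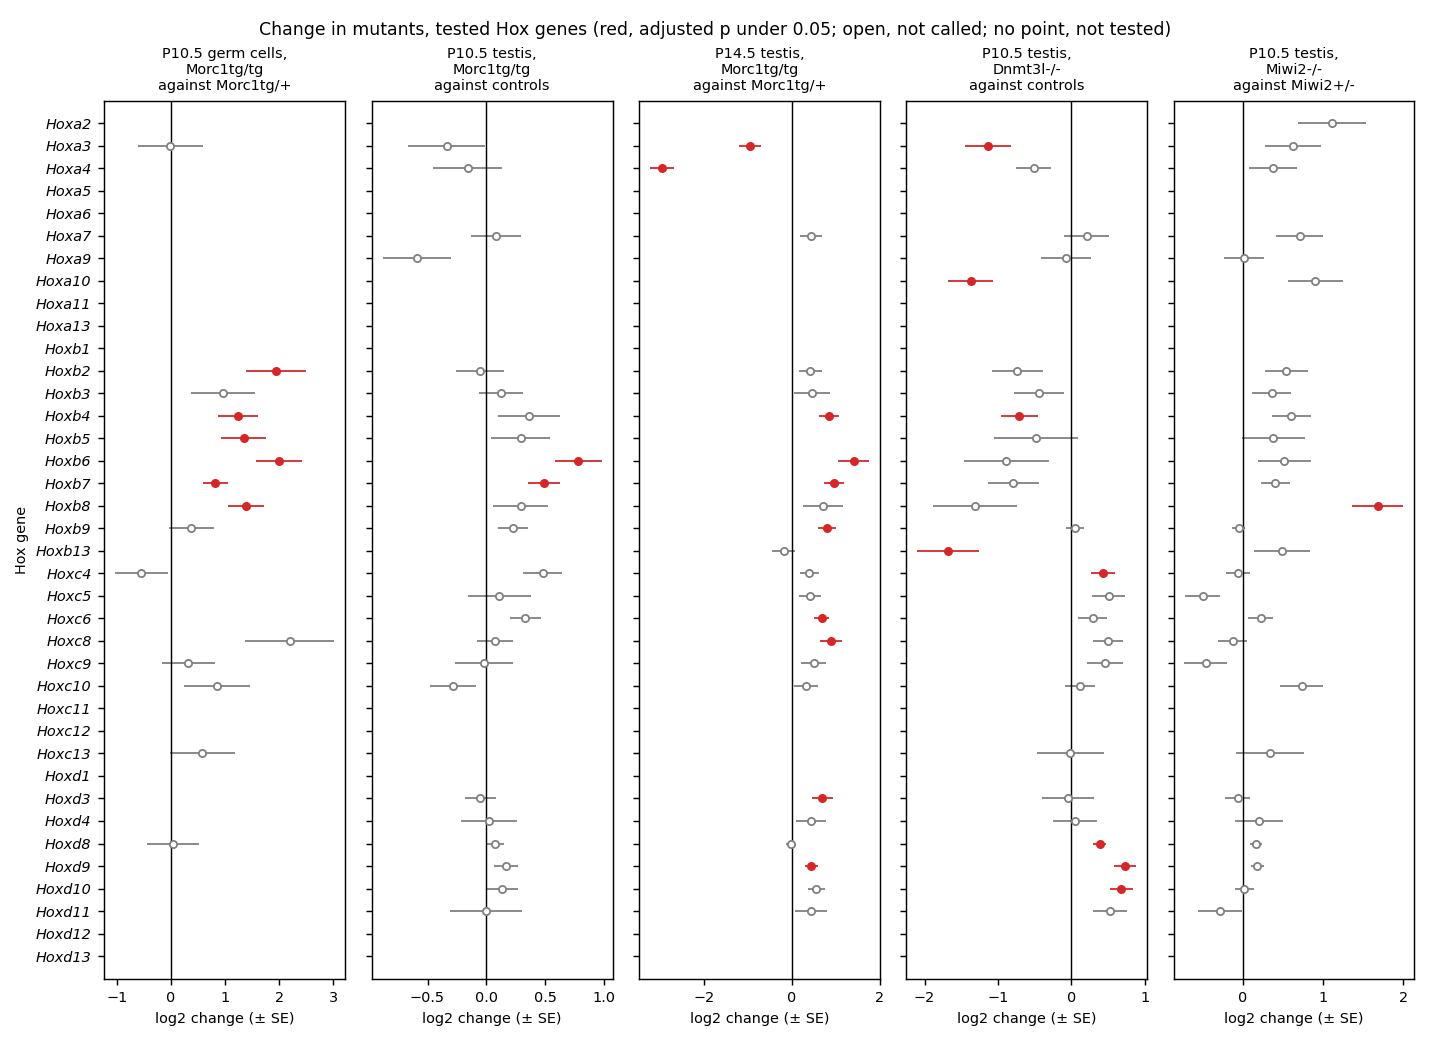
Log2 change (± SE) of the tested Hox genes reported in the mutants of 5 comparisons (red, adjusted p under 0.05; open, not called; no point, not tested), with a horizontal scale of its own in each panel. Red points are 6 in P10.5 germ cells, all to the right and all HoxB, 2 and 10 in Morc1tg/tg testis at P10.5 and P14.5, 8 in Dnmt3l-/- testis and 1 in the library set labelled Miwi2-/-.

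Testes lacking DNMT3L at P10.5 had more of the abundant HoxD genes. Hoxd9 was at 9.40, 9.72 and 10.7 RPKM in Dnmt3l+/+, 8.30, 8.51 and 12.9 in Dnmt3l+/- and 18.6, 16.97 and 12.4 in Dnmt3l-/-, where the lowest mutant library lay below the highest control. Hoxd8 was at 9.34, 8.29 and 8.85, at 7.47, 8.36 and 7.17 and at 10.4, 11.4 and 9.47 RPKM, with no overlap. Hoxd10 was at 1.70, 2.12 and 2.56, at 1.96, 2.11 and 2.85 and at 3.72, 3.83 and 2.80, with 1 mutant library inside the control range. The HoxD sum was 21.5 RPKM in controls and 30.9 in mutants.

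Low genes were among those that went down. Hoxa10, which patterns the uterus and vas deferens, was at 0.224, 0.148 and 0.217 RPKM in Dnmt3l+/+, at 0.158, 0.259 and 0.132 in Dnmt3l+/- and, in Dnmt3l-/-, at 0.085, 0.0697 and 0.0573. Hoxb13 was at 0.0947, 0.199 and 0.253, at 0.184, 0.251 and 0.123 and at 0.0330, 0.0405 and 0.0856. No mutant library reached the lowest control for either gene.

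Of 28 tested members, 4 were higher (14.3%, against 24.9% of all genes tested) and 5 lower (17.9%, against 29.0%), both below the share among genes at large. By edgeR's quasi-likelihood test the log2 changes were 0.73 ± 0.15 for Hoxd9 (adjusted p = 0.00146), 0.39 ± 0.09 for Hoxd8 (adjusted p = 0.00321), 0.68 ± 0.16 for Hoxd10 (adjusted p = 0.00351), -1.37 ± 0.31 for Hoxa10 (adjusted p = 0.00249) and -1.68 ± 0.42 for Hoxb13 (adjusted p = 0.00477). Hoxa3 and Hoxb4 were also lower and Hoxc4 higher, but Hoxb4 passed in 9 of 16 alternative settings (adjusted p up to 0.139) and Hoxc4 in 7 of 16 (up to 0.175). Both were lost without Dnmt3l-/- replicate 1 or 3 or Dnmt3l+/+ replicate 1, and with Dnmt3l+/- controls alone. Hoxb4 was also lost without Dnmt3l+/- replicate 3 and with Dnmt3l+/+ controls alone, and Hoxc4 without Dnmt3l-/- replicate 2, Dnmt3l+/+ replicate 2 or Dnmt3l+/- replicate 1 or 2. The 5 genes given with their values passed in every setting that gave them an adjusted p. Of these, Hoxa10 and Hoxb13 met the filter on low counts through the controls alone. Hoxa10 had 13 to 24 reads in the control libraries and 9, 8 and 7 in Dnmt3l-/-, and Hoxb13 had 8 to 20 against 3, 4 and 9. Germ cell genes fell in the same libraries (13 of 13, sum 670 to 218 RPKM), while 6 of 9 Sertoli genes (3286 to 4440) and 6 of 9 stromal genes (963 to 1288) rose. Their part was not tested.

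Hoxb6, Hoxb7 and Hoxb8, trunk genes of HoxB, did not pass edgeR's test with all libraries of this line and varied among the controls. Hoxb8 was at 0.977, 0.298 and 0.443 RPKM in Dnmt3l+/+ and at 0.201, 1.11 and 0.239 in Dnmt3l+/-, and Hoxb6 at 0.759, 0.149 and 0.469 and at 0.159, 1.09 and 0.322. Hoxb7 showed the same high libraries (1.11 and 1.10). DESeq2 called Hoxb8 (log2 change -1.28, adjusted p = 0.035) and Hoxb7 (-0.76, adjusted p = 0.0483) lower. Hoxb8 also passed edgeR's test without Dnmt3l+/- replicate 1 or 3 and with Dnmt3l+/+ controls alone, and Hoxb7 without Dnmt3l-/- replicate 2 or Dnmt3l+/- replicate 3. The libraries high in these genes, Dnmt3l+/+ replicate 1 and Dnmt3l+/- replicate 2, were also the highest in Crisp1, a secreted protein of the epididymis, which was at 34.3, 4.60 and 8.57 RPKM in Dnmt3l+/+ and at 0.0443, 24.2 and 0.0160 in Dnmt3l+/-. The epididymis list summed to 57.2 and 42.9 RPKM in the 2 libraries and to 20.5 to 33.4 in the other controls. Its part in the Hox values was not tested. With both left out, chosen after seeing the data, 8 members were called in place of 9, with the 5 genes above among them and without Hoxb4 and Hoxc4.

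In the Miwi2 line 1 of 29 tested members was called. Hoxb8 was at 0.114 and 0.0926 RPKM in the libraries labelled Miwi2+/- and at 0.360 and 0.316 in those labelled Miwi2-/-, with no overlap (3.45% of members, against 0.725% of all genes tested; log2 change 1.68 ± 0.32, adjusted p = 0.03, edgeR's quasi-likelihood test). The call was lost without the filter on low counts (adjusted p = 0.0518), and DESeq2 gave no adjusted p for the gene. With the replicate number as a block, 8 of 29 members were called in place of 1, beside 4503 of 15997 genes. These were Hoxb8, Hoxa10, Hoxa2, Hoxc10, Hoxd8, Hoxb4 and Hoxd9, higher in the libraries labelled Miwi2-/-, and Hoxc5, lower. The labels do not say that the numbers mark a shared animal or day, and the deviations of same-numbered libraries correlated at 0.32 across genes. The epididymis list summed to 19.9 and 21.0 RPKM against 24.6 and 25.4, and the fat list to 30.1 and 27.0 against 6.18 and 6.35, with 4 of 5 fat genes tested lower. Their part was not tested.

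HOX partners and regulators were looked at over whole lists. Among all genes tested, 6.43% rose and 5.79% fell in P10.5 Morc1tg/tg germ cells, 14.8% and 20.1% in P14.5 testis, 24.9% and 29.0% in Dnmt3l-/- testis, and 40.4% were higher and 42.9% lower in sorted cells than in testis. Of the 9 PBX, MEIS and PKNOX cofactor genes, none of 7 tested passed in P10.5 germ cells of Morc1tg/tg, whereas in P14.5 testis 2 rose and 3 fell, led by Pbx3 (log2 change -1.18, adjusted p = 0.000102) and Pbx4 (-2.63, adjusted p = 0.000123), by edgeR's quasi-likelihood test. In sorted cells against testis, 5 were lower, Meis1 (-3.67, adjusted p = 5.9e-11) and Pknox2 (-4.95, adjusted p = 1.73e-10) among them, and 2 were higher. Of 17 Polycomb, Trithorax and related regulators, 1 rose (Ezh1, a methyltransferase of Polycomb complex 2, 0.25, adjusted p = 0.0397) and 1 fell (Kdm6a, an H3K27 demethylase, -0.36, adjusted p = 0.0281) of 14 tested in P10.5 Morc1tg/tg germ cells, and 2 rose and 8 fell of 15 in Dnmt3l-/- testis, led by Cbx2 (-1.26, adjusted p = 9.29e-08). Of 10 genes flanking the clusters, 1 of 8 tested fell in P10.5 Morc1tg/tg germ cells (Lnp, beside HoxD, -0.54, adjusted p = 0.0144) and none rose. Of the 8, 2 rose and 4 fell in P14.5 Morc1tg/tg testis, and 3 rose and 3 fell in Dnmt3l-/- testis. Of 9 cofactor genes, 5 rose and 2 fell in Dnmt3l-/- testis, and of 14 regulators tested in P14.5 Morc1tg/tg testis, 1 rose and 5 fell.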

How the data were processed

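RNA-Seq libraries were grouped by the labels. The authors trimmed reads to 50 bp, removed reads matching ribosomal RNA (up to 3 mismatches) and mapped uniquely to mm9 (up to 2 mismatches). The submitters' processing notes name Bowtie, SAMtools and HTSeq. The authors deposited raw gene counts, and beside each an RPKM value, scaled to exon length and mapped reads. The authors tested genes with DESeq. Counts were tested here on all genes with edgeR 4.0.16 in R 4.3.3: TMM, filterByExpr, quasi-likelihood test, Benjamini-Hochberg adjustment over all genes tested, threshold 0.05, with standard errors from the same fit. RPKM gave levels, means and SDs. DESeq2 1.42.0, RLE factors, no filter, other controls, the replicate block and leaving out each library were the alternatives. Tests were checked on simulated counts. No libraries of the same group were copies (lowest chi-square per gene 4.516), and libraries of different groups were not compared in this way. The p-values cover the spread between mice. Intervals and floors (3 counts) cover counting error only, and duplicate reads were kept. Genes named were members at a mean of 1 RPKM or more in control groups, members past the threshold (up to 6 per comparison) and up to 4 called genes per list. The members and lists were chosen with earlier results of these data known. The small RNA, bisulfite and ChIP files were not used here. 1 member and some sequences are counted in the totals but are not reported here.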

Additional observations from a re-analysis of the deposited data

Results flagged for a closer look

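Differences in the effect of MORC1 loss were found for 3 Hox genes. For Hoxa4 in testis, the change in Morc1tg/tg differed between P14.5 and P10.5 by -2.81 on the log2 scale (edgeR's quasi-likelihood test, adjusted p = 0.00117). Between sorted germ cells and testis at P10.5, the change differed by 1.99 for Hoxb2 (adjusted p = 0.0329) and by -6.24 for Hoxd9 (adjusted p = 0.0342), the last resting on genes at 0 reads in the sorted mutants.

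In the 4 P10.5 Morc1tg/+ germ cell libraries, 37 levels were put to Dixon's test, those of single genes and the sums over all members and over each cluster. In 6 of them 1 library stood apart from the others, and all 6 were single genes. Hoxb5 was at 0.118 RPKM in 1 library and at 0.492 to 0.548 in the others, a gap that chance gives in about 1 group in 20. Hoxc11 (0.109 RPKM), Hoxc6 (0.0792), Hoxd1 (0.0646), Hoxd10 (0.125) and Hoxd11 (0.0646) had reads in 1 library and were at 0 in the others, where the ratio is at its highest by construction and that rate does not apply.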

How the results depend on the processing

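Up to 6 called Hox genes per comparison, those with the lowest adjusted p, were tallied over the alternatives. These 58 changes gave 614 values, of which 538 stayed called in the same direction, 76 kept the direction without passing and 0 reversed. Weaker calls named above, such as those of Hoxb4, Hoxc8, Hoxd9 and Hoxd3 in P14.5 Morc1tg/tg testis, are outside this tally. The number of members called depended on single libraries. With each library left out in turn it ran from 0 to 1 at E18.5 (0 with all), from 3 to 5 in P10.5 germ cells (6), from 0 to 2 in P10.5 Morc1 testis (2), from 4 to 9 at P14.5 (10), from 1 to 2 in the Miwi2 line (1), from 0 to 18 between E16.5 and E18.5 (2), from 2 to 10 between P2.5 and P10.5 (4), from 1 to 2 for the interaction with age (1) and from 0 to 3 for that with tissue (2). It ran from 8 to 11 for Dnmt3l (9) and from 10 to 17 for sorted cells against testis in controls (14). DESeq2 called 1 at E18.5, 0 in P10.5 Morc1 testis, 0 in the Miwi2 line, 7 from E16.5 to E18.5 and 4 for the interaction with tissue. Without a filter on low counts the Miwi2 count was 0 and that from E16.5 to E18.5 was 3. With Morc1tg/+ controls alone, P10.5 testis gave 0. The cause of these shifts was not tested. The labels do not say whether replicate numbers mark a shared animal or day, and the deviations of same-numbered libraries correlated between -0.46 and 0.35. A fit blocked on replicate number gave counts of 6 in P10.5 germ cells (Hoxb5 lost, adjusted p = 0.0839, and Hoxc8 gained, log2 change 3.52, adjusted p = 0.0189, edgeR), 0 in P10.5 Morc1 testis, 10 at P14.5 (Hoxd9 lost and Hoxd10 gained), 9 for Dnmt3l, 8 in the Miwi2 line and 0 at E16.5, E18.5 and P2.5. The summed testis over germ cell ratio of 5.03 became 2.92 and 3.09 under other scalings and ran from 4.87 to 5.12 with each library left out. In sorted cells at P10.5, 24 members were too low to test between genotypes, with 7474627 to 9641942 reads on genes in each library. At E18.5 it was 10 members, with 2698197 to 4007833 reads.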

Other observations

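Other transcripts inside the clusters were listed beside the Hox genes and were chosen after their values were seen. The row of Mir196a-1, a microRNA gene within HoxB, stood at 28.6 RPKM in P10.5 testis controls (268 reads over 3 libraries) and at 31.0 in Morc1tg/tg, and had no read in sorted Morc1tg/+ germ cells of that age. At P14.5 it was at 12.8 RPKM in controls and 22.3 in Morc1tg/tg. The row 1700109F18Rik, antisense to Hoxd3 and Hoxd8, was at 1.17 RPKM in P10.5 testis controls. It had no read in sorted Morc1tg/+ cells of that age and 3 reads in the sorted mutants. In fetal Morc1tg/+ germ cells it was at 0.251 RPKM (18 reads) at E16.5 and 0.927 RPKM (24 reads) at E18.5.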
